A study of Mus musculus with 6 samples.

Results

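The clustered replication-dependent histone genes supply the bulk of the histones that package newly copied DNA. They were taken as the coding RefSeq rows whose symbol begins with Hist1h, Hist2h, Hist3h or Hist4h, keeping for each symbol the row with the highest mean, which gave 64 genes of 20275 coding symbols. There were 6 linker histone H1 genes, 17 H2A genes, 17 H2B genes, 12 H3 genes and 12 H4 genes, of which 50 carried a Hist1 symbol, 10 a Hist2 symbol, 3 a Hist3 symbol and 1 a Hist4 symbol. RNA was sequenced from WT mouse embryonic fibroblasts (MEFs, primary cells of C57BL/6x 129 background taken at embryonic day 13.5 from littermates and passaged 4 times), either untreated or given TNFα, an inflammatory cytokine, at 20 ng/ml for 1.5, 6 or 24 hr. Each time was 1 library, so no difference between times could be tested, and each library had 2 deposited columns, R1 and R2, whose meaning the sources used here do not give and whose mean was used as the value. Histone H3 trimethylated at lysine 4 (H3K4me3, a mark of active promoters) was mapped by ChIP-seq in 1 library of untreated MEFs beside 1 input library.

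During S phase each of these genes is transcribed from a compact promoter, and the mRNA ends not in a poly-A tail but in a conserved stem-loop that the stem-loop binding protein, SLBP, holds for processing, translation and decay. Most of the genes have no intron, lie in a few clusters and encode nearly the same proteins, and many H2A and H2B genes stand back to back and share a promoter. Some of them also give polyadenylated transcripts that run past the stem-loop, mainly in cells that have stopped dividing. The RNA libraries were made from poly-A selected RNA, so mRNAs that end at the stem-loop are measured only as far as they pass that step, and at which rate they did was not measured here.

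The stem-loop was searched for in the 150 bases after the coding sequence on the mm9 genome, as a stem of 6 base pairs with the usual order of purines and pyrimidines around a loop of 4 bases. It was found for 59 of the 62 genes with an annotated coding sequence. Between the last amino-acid codon and the stem-loop lay 24 to 61 bases, the stop codon included. The next lines show it, in capitals with 5 bases on each side, for the gene with the highest level in each class and for Hist2h4, an H4 gene with a sequence of its own that moved apart from its class.
Hist1h1c (chr13:23831376-23831401, plus strand): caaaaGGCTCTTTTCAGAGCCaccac
Hist1h2ah (chr13:22126991-22127016, minus strand): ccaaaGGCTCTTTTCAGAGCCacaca
Hist1h2bc (chr13:23776511-23776536, plus strand): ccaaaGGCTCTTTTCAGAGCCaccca
Hist1h3b (chr13:23844684-23844709, plus strand): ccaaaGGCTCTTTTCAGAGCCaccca
Hist1h4k (chr13:21842014-21842039, minus strand): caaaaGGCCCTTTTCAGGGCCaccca
Hist2h4 (chr3:96066857-96066882, minus strand): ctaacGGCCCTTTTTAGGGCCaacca

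The first 4 of these genes carry the form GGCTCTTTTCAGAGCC, which stood behind 36 genes. The form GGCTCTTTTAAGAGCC stood behind 9, and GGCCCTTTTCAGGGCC, with another base pair in the stem, behind 7. The genes for which no stem-loop matched were Hist1h2an, Hist2h2bb and Hist2h2be. In the GENCODE annotation of mm9, 60 of the 64 genes had 1 exon only, and Hist1h2bc, Hist1h2be, Hist1h2bp and Hist2h2bb had a transcript of 2 exons. The annotation ended near the stem-loop for most genes and ran more than 100 bases past it in the genome for 19, by 839 bases for Hist1h1c, 2010 bases for Hist1h2ac, 1235 bases for Hist2h4 and 7826 bases, intron included, for Hist1h2bc.

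Levels are given in RPKM, the reads on a transcript scaled to its length and to the depth of the library, brought to the study's scale by a constant that leaves ratios unchanged. An average above 1 RPKM over the 4 libraries was reached by 54 of the 64 genes, among them all 17 H2A and all 12 H3 genes, 13 H2B genes, 11 H4 genes and, of the H1 genes, Hist1h1c. Most H2A genes stood far above the others, but Hist2h2ab (5.13 RPKM untreated) and Hist3h2a (3.65) were at the level of H4 genes. In untreated MEFs the median was 61.4 RPKM for H2A, 3.99 for H4, 3.12 for H3, 2.49 for H2B and 0.494 for H1. Nucleosomes hold the core histones in equal parts. These medians are per gene and not class totals, near-identical genes may share reads, and the RNA was poly-A selected. They can therefore not be set against that ratio.

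**Figure D1:**
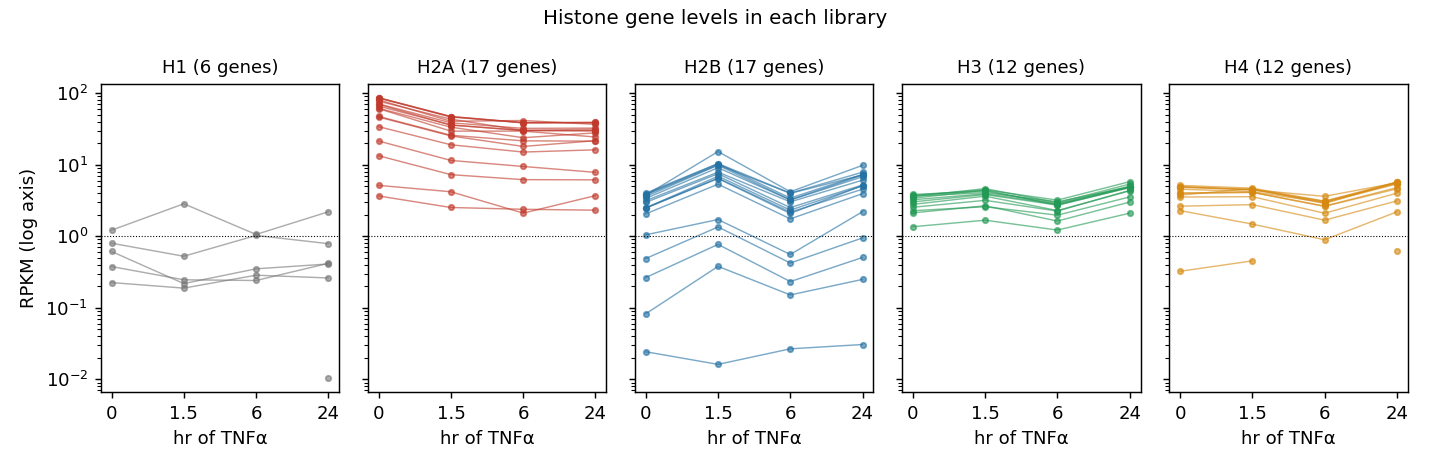
RPKM of each of the 64 histone genes (1 line a gene) in the untreated library (0 hr) and after 1.5, 6 and 24 hr of TNFα, on a log axis, with a dotted line at 1 RPKM; values listed at 0 (Hist1h1t, and Hist4h4 at 6 hr) are not drawn. H2A genes run from up to 86.4 RPKM untreated to at most 38.9 at 24 hr, whereas most H2B genes are highest at 1.5 hr.

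The libraries differed as wholes. Over the 6571 coding symbols with an average above 1 RPKM, the log2 ratio of treated to untreated cells had a median of 0.45, -0.74 and 0.11 at 1.5, 6 and 24 hr, so each change below is also set against that median. The RPKM worth of 1 read on 1 kb, read from the steps between low values, ran from 0.00936 at 24 hr to 0.013 at 6 hr, which puts the 6 hr library at 0.858 to 0.91 and the 24 hr library at 1.18 to 1.19 of the depth of the untreated R1 column. The total number of reads is not in the RNA table, and the sequencing depths listed by the study were not used for counting. No counting interval is given. Of 9 fibroblast markers, 8 were above 1 RPKM in every library, and their sum lay between 526 and 1160. The 3 endothelial and 3 epithelial markers summed to at most 0.05 RPKM. Of 5 macrophage markers, 3 (Lyz2, Cd68 and Csf1r) were above 1 RPKM in every library, and the 5 summed to 35.1 to 186 RPKM. Lyz2 took 26.4, 171, 31.5 and 84 RPKM at 0, 1.5, 6 and 24 hr. Cd68 had 7.07, 9.61, 2.36 and 3.64 RPKM and Csf1r 3.44, 3.35, 1.05 and 1.45. Ptprc stayed at or under 0.359 and Emr1 at or under 0.865, and the part of such cells in the histone values was not tested. In bulk RNA, fewer cells in S phase and less histone mRNA per cell cannot be told apart.

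At 1.5 hr of TNFα the histone classes moved apart. H2B genes and Hist1h1c were higher than in untreated cells, H2A genes were lower (class median -0.88, or -0.21 relative to coding symbols of like GC content), and H3 and H4 genes lay between. At least 2-fold higher were 13 of the 54 genes, namely 12 H2B genes and Hist1h1c, beside 29.9% of all coding symbols. At least 2-fold lower was 1 gene, Hist1h2ak, beside 7.82% of all coding symbols. Relative to coding symbols of like GC content Hist1h2ak was at -0.35. Relative to the median of coding symbols, 3 genes were at least 2-fold higher (Hist1h2bc, Hist1h2bf and Hist1h2bg, against 15.7% of coding symbols) and 16 were at least 2-fold lower (15 H2A genes and Hist2h4, against 17.5%). Over all 54 genes the median log2 ratio was 0.11, beside 0.45 for coding symbols.

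At 6 hr, when the whole library was low, no histone gene was at least 2-fold higher, beside 1.73% of coding symbols. At least 2-fold lower were 16 genes, namely Hist2h4 and all H2A genes but Hist1h2ao and Hist3h2a, beside 31.6% of coding symbols. Set against the coding median, 0 genes passed in the higher direction (7.12% of coding symbols) and 0 in the lower (3.17%), and the histone median of -0.52 stood above the coding median of -0.74. Under 4 scalings of the libraries the histone median at 6 hr turned positive, between 0.22 and 0.31.

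At 24 hr the classes were apart again. At least 2-fold higher were 5 H2B genes (Hist1h2bb, Hist1h2bc, Hist1h2bg, Hist1h2bh and Hist2h2bb), beside 16.8% of coding symbols. At least 2-fold lower were 15 H2A genes, beside 12.6%, but 1 gene was in the R1 column alone and 4 were relative to coding symbols of like GC content. Against the coding median 1 gene, Hist1h2bc, was higher by this rule (14.1% of coding symbols) and 15 were lower (15.2%). The threshold cut through closely spaced values: at 24 hr Hist1h2bh lay just inside and Hist1h2bf just outside, both at a log2 ratio of 1.00 to 2 decimals, and at 1.5 hr Hist1h2ak (-1.04) lay just inside and Hist1h2ao (1.996-fold lower) just outside.

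**Figure D2:**
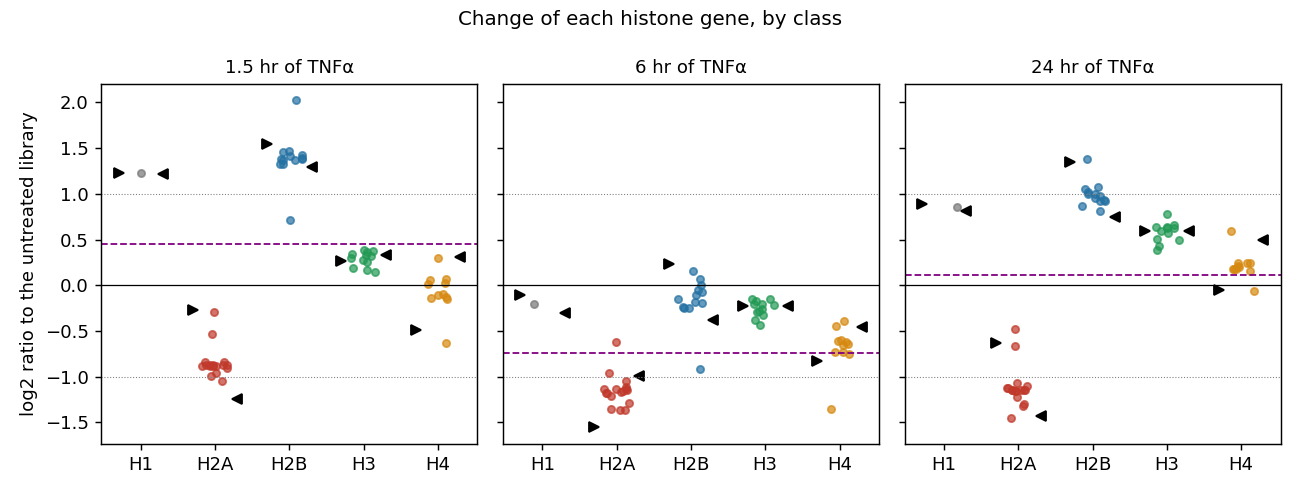
Log2 ratio to the untreated library of each of the 54 histone genes above 1 RPKM (points), by class and time; black triangles pointing right and left give the class median in the R1 and the R2 column, dotted lines mark 2-fold and the dashed line is the median of 6571 coding symbols. H2B medians of 1.38, -0.15 and 0.97 lie above H2A medians of -0.88, -1.15 and -1.14, and library scaling turns the H2B median at 6 hr to 0.59 or more. The H2A medians are -0.21, -0.30 and -0.29 relative to coding symbols of like GC content.

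H2A, which forms with H2B the outer dimers of the nucleosome, had the highest levels. Hist1h2ah, at chr13:22126982-22127512 on the minus strand, was at 86.4 RPKM in untreated MEFs and at 47.0, 38.5 and 38.9 RPKM after 1.5, 6 and 24 hr. The untreated library was the highest and the 6 and 24 hr libraries were nearly level. The log2 ratios were -0.88, -1.16 and -1.15. The other H2A genes with much shared sequence had nearly the same ratios. In 14 H2A genes over 50% of the coding sequence, as 36-base words, also occurs in another histone gene. Their log2 ratios lay between -1.04 and -0.84 at 1.5 hr, and such genes may be measured by the same reads. Their untreated levels ran from 13.3 RPKM (Hist1h2ac, annotated at 2482 bases) to 86.4 (Hist1h2ah, 531 bases). RPKM is scaled to length, so this range need not be one of transcript number.

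The 3 H2A genes with under 50% of their words in other histone genes had ratios from -0.90 to -0.30 at 1.5 hr. Hist2h2ab had 5.13, 4.18, 2.10 and 3.69 RPKM at 0, 1.5, 6 and 24 hr, with log2 ratios of -0.30, -1.29 and -0.48. Hist3h2a lies within another gene of the same strand, Trim17 (chr11:58768187-58786600), which is annotated from the same start and holds all of its words. Reads within Hist3h2a can thus come from either gene. Trim17 runs on past the end of Hist3h2a, and its reads there were not examined. Hist3h2a had 3.65, 2.52, 2.38 and 2.31 RPKM. Its log2 ratios of -0.53, -0.62 and -0.66 never reached 2-fold. Hist1h2aa, known as a testis histone, was listed at 21.4, 11.5, 9.44 and 7.80 RPKM with log2 ratios of -0.90, -1.18 and -1.45, had 9.01% of its words in other histone genes and had its nearest H3K4me3 peak 169378 bases away.

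The H2A values depended on the column. The R2 value of an H2A gene was above its R1 value by a median of 2.34, 1.20, 3.44 and 1.36 times in the 0, 1.5, 6 and 24 hr libraries. Over coding symbols the same ratio had a median between 0.927 and 0.989, and its central 95% lay between 0.728 and 1.23 over the libraries. For Hist1h2ah the R1 values were 51.3, 42.6, 17.1 and 33.0 RPKM and the R2 values 122, 51.4, 60.0 and 44.8. The class median at 1.5 hr was thus -0.27 in R1 and -1.24 in R2, and at 24 hr -0.64 in R1 and -1.43 in R2. At 6 hr it was -1.55 in R1 and -0.99 in R2. In the R1 column Hist2h2ab and Hist3h2a were higher, not lower, at 1.5 hr (log2 ratios 0.59 and 0.85) and at 24 hr (0.51 and 0.53). By the 2-fold rule 15 H2A genes were lower at 24 hr in the mean of the columns, but only 1 histone gene was in R1 alone.

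**Figure D3:**
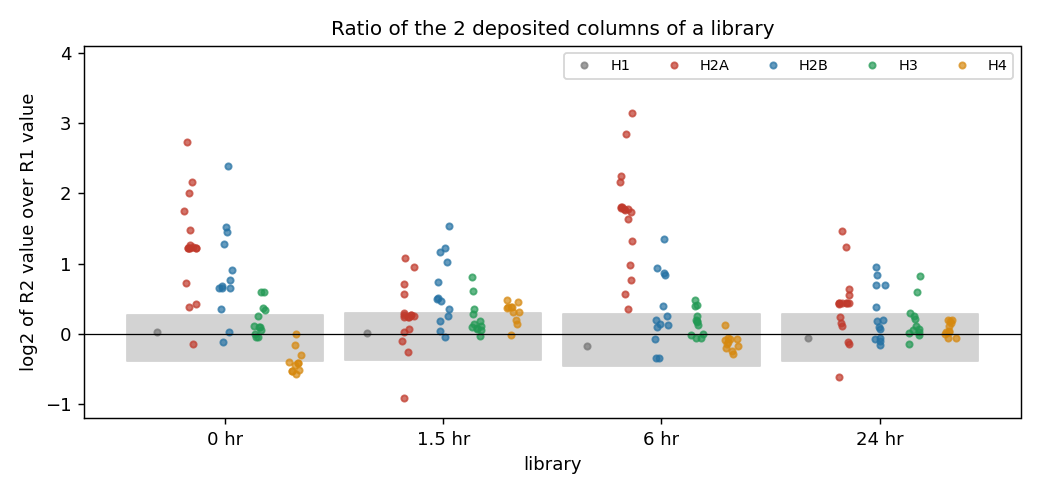
Log2 of the R2 over the R1 value of each histone gene above 1 RPKM in each library, by class; grey boxes hold the central 95% of 6571 coding symbols. H2A genes reach 3.15 at 6 hr and most lie above the box at 0, 6 and 24 hr. Most H2B genes lie above it at 0 and 1.5 hr. Most H4 genes lie below it at 0 hr and above it at 1.5 hr, and Hist1h1c lies within it.

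Transcript base composition moved with the ratios as well. Split into 20 bins of GC content, coding symbols with transcripts of 34.4 to 43.2% GC had a median log2 ratio of 1.39 at 1.5 hr and 1.00 at 24 hr, whereas those above 60.7% had -0.69 and -0.93. At 6 hr the same bins were at -0.09 and -0.88. H2A transcripts had a median GC content of 63.1%, H3 60.7%, H4 59.5% and H2B 58.6%. Relative to the median of coding symbols in the same bin, the H2A median was -0.21, -0.30 and -0.29 at the 3 times, with 16, 17 and 16 of 17 genes below their bin, whereas relative to all coding symbols it was -1.33, -0.41 and -1.25. The H2B median relative to its bins was 1.65, 0.71 and 1.48. The part of base composition in these ratios was not tested. With the GC trend removed but the median of all coding symbols added back, which keeps the shift of the whole library, the H2A medians were 0.24, -1.04 and -0.19 against the untreated library. The distance from the H2A to the H2B median was the same in both forms, at 1.86, 1.00 and 1.78, against 2.26, 1.00 and 2.11 as deposited.

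H2B genes were the ones at higher level after 1.5 hr. Their median was 1.38 after 1.5 hr (R1 1.55, R2 1.29), -0.15 after 6 hr (R1 0.23, R2 -0.38) and 0.97 after 24 hr (R1 1.35, R2 0.74), and all 13 H2B genes were above their untreated level at 1.5 and at 24 hr. At 6 hr, 11 of the 13 had R1 and R2 ratios of opposite sign, led by Hist1h2bk (0.23 and -0.17), Hist1h2bl (0.18 and -0.44) and Hist1h2bj (0.39 and -0.13), so no direction is given for H2B at that time. In the 4 scalings of the libraries the H2B median at 6 hr was positive, from 0.59 to 0.67.

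Hist1h2bc, 1 of the 4 H2B genes with a transcript of 2 exons, had the highest level of its class. Its level was 3.74 RPKM in untreated cells and 15.3, 4.18 and 9.79 RPKM after 1.5, 6 and 24 hr. The 1.5 and 24 hr libraries were high and the other pair low. The log2 ratios were 2.03, 0.16 and 1.39, or 4.08-fold, 1.12-fold and 2.62-fold higher, and the R1 and R2 columns gave 2.24 and 1.84 at 1.5 hr and 1.60 and 1.19 at 24 hr. Of the 54 genes it had the highest ratio at each of the 3 times, and against the coding median it was 1.57, 0.90 and 1.28 higher. Relative to the median of its GC bin it was 1.31, 0.85 and 1.06 higher at the 3 times. All of its coding 36-base words occur in another histone gene, but the part past the stem-loop was not among the words compared.

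Most other H2B genes kept close together. Hist1h2bk had 4.00, 10.4, 4.00 and 7.85 RPKM, and Hist1h2bb had 2.47, 6.40, 2.08 and 5.11. Both were highest at 1.5 hr and next highest at 24 hr. Hist1h2ba, known as a testis H2B, was listed at 2.49, 6.48, 2.17 and 4.54 RPKM, with 41.8% of its words shared and no peak at its start. The exception was Hist2h2bb, with 3.66% of its words shared: it had 1.05, 1.71, 0.555 and 2.20 RPKM, log2 ratios of 0.71, -0.91 and 1.08, and was higher at 24 than at 1.5 hr. Its columns differed little, at 0.63 and 0.79 for 1.5 hr.

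Genes for H3 and H4, which form the inner tetramer of the nucleosome, changed less than 2-fold with 1 exception. The 12 H3 genes had ratios between 0.15 and 0.38 at 1.5 hr, -0.43 and -0.15 at 6 hr and 0.38 and 0.78 at 24 hr. Every H3 gene was thus below the coding median at 1.5 hr and above it at 6 and 24 hr. The R1 and R2 medians of H3 were 0.27 and 0.33 after 1.5 hr, both -0.23 after 6 hr, and 0.60 and 0.59 after 24 hr. Hist1h3b, the highest, was at 3.72, 4.44, 3.19 and 5.79 RPKM. The sign of the H3 median depended on the scaling at 1.5 hr (-0.12 to 0.06 under 4 scalings) and at 6 hr (0.50 to 0.59 under the same, against -0.24 as deposited), but not at 24 hr.

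H4 medians were -0.10, -0.64 and 0.20 at the 3 times, and 4 scalings turned that of 6 hr to between 0.10 and 0.18. At 1.5 hr 10 of the 11 H4 genes had columns of opposite sign, with a class median of -0.49 in R1 and 0.31 in R2, and at 24 hr 7 did, so that no direction is given at those times. Hist1h4k, the highest, had 5.14, 4.69, 3.09 and 5.71 RPKM. Hist2h4, which has 10.8% of its words in other histone genes, was the H4 gene that passed the rule: it had 2.28, 1.48, 0.892 and 2.19 RPKM at 0, 1.5, 6 and 24 hr. The untreated and 24 hr libraries were nearly level and the 6 hr library was lowest, with log2 ratios of -0.63, -1.35 and -0.06. R1 and R2 gave -1.31 and -1.40 at 6 hr. The 6 hr value was -0.61 against the coding median.

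Among linker histones Hist1h1c was the only gene above an average of 1 RPKM. It was at 1.21, 2.84, 1.06 and 2.19 RPKM at 0, 1.5, 6 and 24 hr, high in the same libraries as Hist1h2bc. The log2 ratios were 1.23, -0.20 and 0.85, with R1 and R2 at 1.23 and 1.22 for 1.5 hr. The other H1 genes did not share this order. Hist1h1a had 0.612, 0.218, 0.350 and 0.409 RPKM, lowest at 1.5 hr, with a log2 ratio of -1.49. Hist1h1e had 0.798, 0.524, 1.02 and 0.787 RPKM and was highest at 6 hr. Hist1h1b and Hist1h1d stayed between 0.188 and 0.418 RPKM. Hist1h1t, a testis linker histone, was listed at 0 except for 0.0103 RPKM at 24 hr, about the worth of 1 read.

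The other genes under 1 RPKM were Hist1h2be, Hist2h2be, Hist3h2ba, Hist3h2bb-ps and Hist4h4. Hist1h2be was at 0.487, 1.35, 0.422 and 0.947 RPKM and so was ordered as its class was. Hist2h2be stayed between 0.0162 and 0.0306 RPKM. Hist4h4, the only member of its cluster, was at 0.323, 0.452 and 0.619 RPKM at 0, 1.5 and 24 hr and was listed at 0 at 6 hr.

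How far the reads of 1 gene can be told from those of its relatives was described by cutting each coding sequence into words of 36 bases. The median share of words found in another histone gene was 86.6% for H2A, 83.8% for H3, 77.0% for H2B, 73.6% for H4 and 14.2% for H1, and 47 of 62 genes had more than 50% of their words in another. Genes of 1 class linked by 50% or more of their words fell into 24 groups, the largest of which held 12 genes. How the authors counted reads that match several places is not given in the sources used here, so values of near-identical copies are uncertain for each gene. With 1 entry for each group, 15 entries were above 1 RPKM, of which 3 were at least 2-fold higher at 1.5 hr and 3 at least 2-fold lower at 24 hr.

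**Figure D4:**
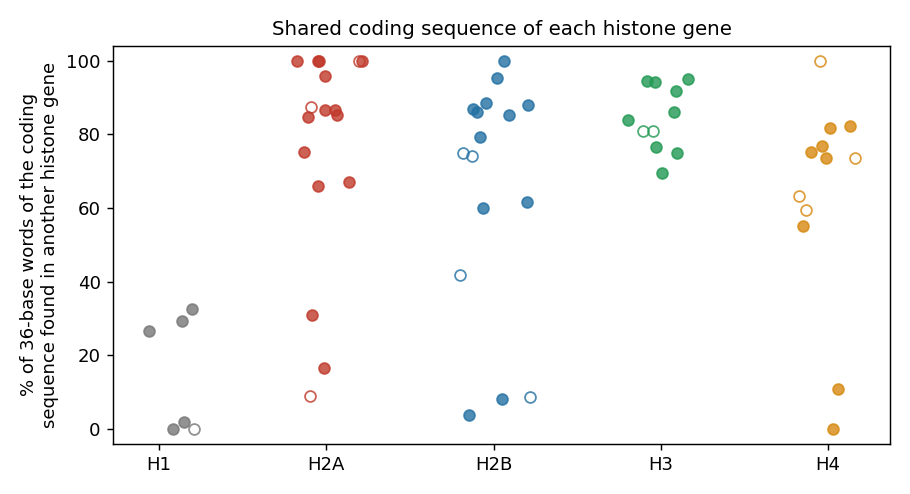
Share of the 36-base words of each coding sequence that occur in another histone gene, by class; filled points have an H3K4me3 peak within 1 kb of a transcript start and open points have none. H3 genes lie between 69.5 and 94.9%, H1 genes at or under 32.5%.

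In untreated MEFs H3K4me3 marked most of these genes. A peak lay within 1 kb of an annotated start for 50 of the 64 genes, or 78.1%, beside 54.2% of all coding genes with a position. Of the 54 genes above 1 RPKM 42 had a peak, or 77.8%, beside 92.1% of coding genes above that level. The 50 genes shared 27 peaks, whose median fold enrichment over input was 40.1, with 629 tags, beside 45.5 and 1049 for all 11157 peaks. The highest enrichment, 120.8, was in the peak chr11:58766959-58771561, which covers the back-to-back starts of Hist3h2a and Hist3h2bb-ps. The lowest, 20.8, was at Hist1h3d. Only 27 genes kept a peak when a fold enrichment above 40 was required. No gene with a peak was listed at 0 in every library. The lowest was Hist2h2be, in a peak of 966 tags that also covers the starts of Hist2h2ab and Hist2h2ac, both above 1 RPKM.

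The 14 genes without a peak included the testis genes Hist1h1t, Hist1h2aa and Hist1h2ba, as well as Hist1h2an, Hist1h2ao, Hist1h2bh, Hist1h2bp, Hist1h3e, Hist1h3f, Hist1h4b, Hist1h4c, Hist1h4f, Hist1h4m and Hist3h2ba. Hist1h2ao and Hist1h4m, whose words all occur in other histone genes, lay 20972 and 19593 bases from the nearest peak, and that peak held 43 tags. For Hist1h4m the sources differ on the position. GENCODE, used for the peaks, has it on the plus strand, but the RefSeq promoter used below is on the minus strand. Its lack of a peak is therefore uncertain. Over all 14 the median share of words in another histone gene was 73.9%, against 80.4% for genes with a peak.

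Back-to-back H2A and H2B genes were also set side by side as pairs. There were 11 pairs with starts at most 500 bases apart, and in 9 of them both starts lay within 1 peak. In all 11 pairs the H2B gene had the higher ratio at 1.5, 6 and 24 hr, by a median log2 difference of 2.32, 1.03 and 2.16 in the mean of the columns. In R1 and R2 alone it did in 10 of 11 pairs at 1.5 hr and in 11 at 6 and 24 hr. The exceptions were Hist2h2ac with Hist2h2be in R1 (-0.48 and -1.09) and Hist3h2a with Hist3h2bb-ps in R2 (-0.93 and -1.03), where the pseudogene was at 0.0823 RPKM untreated and had 2.64 in R1. As deposited, at 1.5 hr 10 pairs had an H2A gene below and an H2B gene above the untreated level, at 6 hr 4 did and at 24 hr all 11. The exception at 1.5 hr was Hist2h2ac (-0.84) with Hist2h2be (-0.59), whose H2B gene was near 0 RPKM. Since most of these genes share sequence with the rest of their class, the 11 differences are not independent. Reads cannot be tied to the gene at a given promoter, so the pairs do not compare the classes promoter by promoter. The pair medians lie near the distances between the class medians (2.26, 1.00 and 2.11). Hist2h2be and Hist3h2bb-ps also averaged under 1 RPKM.

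**Figure D5:**
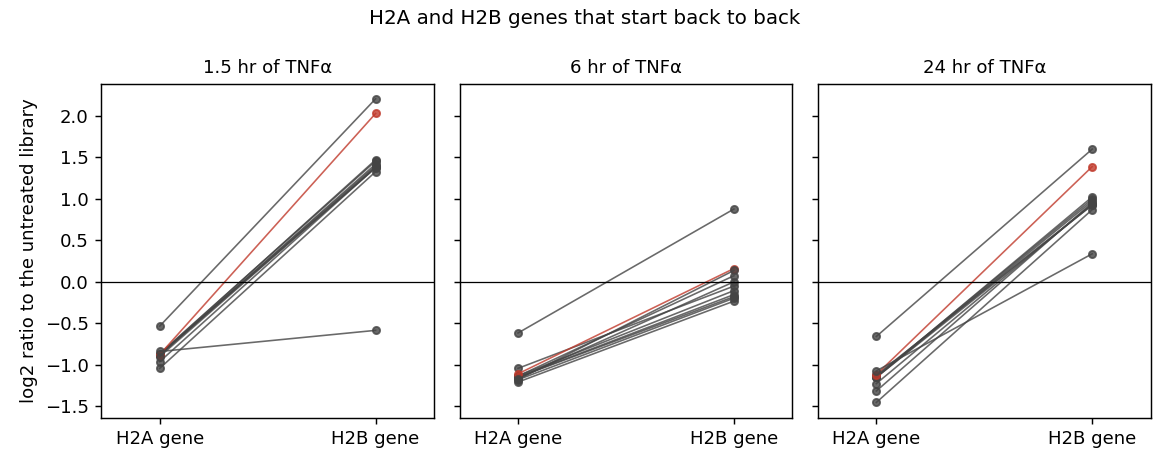
Log2 ratio to the untreated library of the H2A gene (left) and the H2B gene (right) of each of 11 back-to-back pairs, joined by a line, at each time; the red line is Hist1h2ac with Hist1h2bc. In the mean of the columns the H2B end is higher in every pair, with differences from 0.25 to 2.90 at 1.5 hr.

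Hist1h2ac (chr13:23773336-23775817, minus strand) had 13.3, 7.25, 6.17 and 6.13 RPKM and log2 ratios of -0.88, -1.11 and -1.12, and Hist1h2bc (chr13:23776068-23784357, plus strand) had the values given above, with 2.03 at 1.5 hr. Both starts lay in the peak chr13:23773998-23778774, which held 845 tags at an enrichment of 51.5. The 250 bases between the starts, chr13:23775818-23776067 of mm9 on the plus strand, are shown because both genes are transcribed away from them. Capitals mark the CCAAT box, the octamer ATTTGCAT and the TATA box in the form TATAAA, each on either strand. The 177 bases between Hist1h2ah and Hist1h2bk, chr13:22127513-22127689, are printed in the same way for the H2A gene with the highest level.
Hist1h2ac to Hist1h2bc: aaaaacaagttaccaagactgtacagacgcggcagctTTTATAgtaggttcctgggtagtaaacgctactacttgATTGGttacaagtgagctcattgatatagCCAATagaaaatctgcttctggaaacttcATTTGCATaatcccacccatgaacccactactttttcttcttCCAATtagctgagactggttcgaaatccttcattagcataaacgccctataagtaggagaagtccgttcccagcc
Hist1h2ah to Hist1h2bk: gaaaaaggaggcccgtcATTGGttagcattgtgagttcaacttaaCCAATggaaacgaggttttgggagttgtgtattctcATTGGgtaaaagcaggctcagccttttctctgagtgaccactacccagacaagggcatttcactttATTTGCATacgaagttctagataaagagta

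These motifs were counted on both strands in the 250 bases before the start of each gene in RefSeq promoters of GRCm38.p6, which held 58 of the 64 genes. CCAAT, the site of the trimeric factor NF-Y, was in 48 of 58 promoters (82.8%, against 33.8% of all 32851 promoters), with 17 of 17 H2A, 14 of 14 H2B and 6 of 6 H1 promoters but 3 of 11 H4 promoters. TATAAA was in 28 (48.3%, against 12.4%), at any place in the window, so the count does not give its distance from the start. For Hist1h2bk it was in the window but not in the bases shown above between it and Hist1h2ah. The octamer ATTTGCAT, bound by the POU factor OCT1, was in 7 of 17 H2A and 7 of 14 H2B promoters, in none of the H1, H3 or H4 promoters and in 1.6% of all promoters. The kappaB consensus, the site of the factor NF-κB that TNFα activates, was in 0 of 58, against 7.25% of all promoters. None of these motifs contains another, back-to-back genes share windows, and a motif absent from these letters says nothing of the factor.

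The machinery around these genes was described with lists of other genes, whose counts stand beside the shares over all coding symbols of 29.9, 1.73 and 16.8% higher and 7.82, 31.6 and 12.6% lower at 1.5, 6 and 24 hr. Among factors that process histone pre-mRNA, 9 of 16 were above 1 RPKM, and 3 were at least 2-fold higher and 0 lower at 1.5 hr, 0 and 6 at 6 hr and 2 and 1 at 24 hr. Against the coding median these counts were 2 and 3, 0 and 0, and 1 and 2. Snrpb, a core snRNP protein, had the highest level of the list, and Snrpd3 had the highest ratio at 1.5 and 24 hr (1.58 and 1.22). Ncbp1, of the cap-binding complex, was the least low at 6 hr (-0.35). Lsm10, a part of the U7 snRNP, was the lowest at 6 hr and Upf1, a helicase of histone mRNA decay, at 1.5 and 24 hr (-0.83 and -1.49). Slbp itself averaged under 1 RPKM, with 0.585, 1.38, 0.491 and 1.14 RPKM, high in the same libraries as the H2B genes.

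Of 12 regulators of histone gene transcription 8 were above 1 RPKM, with 2, 0 and 1 at least 2-fold higher and 0, 3 and 0 lower at the 3 times, or 1, 0 and 0 higher and 1, 0 and 0 lower against the coding median. Ccne1, the cyclin of the CDK2 complex that switches these genes on, was highest at each time (1.52, -0.24 and 1.05). E2f1 was the lowest at 1.5 and 24 hr (-0.76 and -0.86) and Nfyc at 6 hr (-1.31), while E2f4 had the highest level. Npat, the coactivator of the histone clusters, averaged under 1 RPKM, with 0.182, 0.513, 0.161 and 0.330 RPKM.

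Histone chaperones carry new histones to DNA, and 11 of 13 were above 1 RPKM. At least 2-fold higher were 2 at 1.5 hr and 0 at 6 and 24 hr, and 1 was lower at 6 hr, but none was in either direction against the coding median. Nap1l1 had the highest ratio at 1.5 and 24 hr (1.36 and 0.77) and Rbbp4 at 6 hr (-0.05), Chaf1a was lowest throughout (-0.31, -1.35 and -0.31), and Ssrp1 had the highest level, up to 17.7 RPKM at 1.5 hr.

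Histone variants made outside S phase come mostly from genes with poly-A tails, and of the 14 variants listed 11 were above 1 RPKM. At least 2-fold higher were 4, 1 and 3 and lower 3, 2 and 3 at the 3 times, and against the coding median 4, 1 and 3 higher and 3, 0 and 3 lower. H2afz, which encodes H2A.Z, had 5.05, 20.8, 4.23 and 11.9 RPKM and the highest ratio at 1.5 and 24 hr (2.04 and 1.23). H1fx, a linker variant, was lowest at those times (-2.13 and -2.70). H2afy, the gene for macroH2A, had 24.5, 10.9, 92.8 and 11.6 RPKM, was highest at 6 hr (1.92) and had the highest level of the list. H2afx, the H2A variant phosphorylated at DNA breaks, had 19.9, 14.3, 8.49 and 11.4 RPKM and the lowest ratio at 6 hr (-1.23). Its R1 and R2 ratios were of opposite sign at 1.5 hr (0.30 and -0.88) and far apart at 24 hr (-0.03 and -1.22). H3f3b, which encodes H3.3, had 10.2, 15.3, 5.22 and 9.19 RPKM.

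DNA replication genes, which are used in the same phase of the cell cycle as the clustered histones, had 12 of 23 measured members above 1 RPKM, with 7, 0 and 4 at least 2-fold higher and 1, 3 and 1 lower, or 5, 0 and 3 and 1, 0 and 1 against the coding median. Their median log2 ratios were 1.17, -0.83 and 0.67 at the 3 times, beside 0.45, -0.74 and 0.11 for coding symbols. Pcna, the sliding clamp, had 1.21, 5.19, 1.11 and 2.98 RPKM and the highest ratio at each time (2.10, -0.13 and 1.30). Pold1, a catalytic subunit of DNA polymerase delta, was the lowest at 1.5 and 24 hr (-1.03 and -1.19), Lig1 at 6 hr (-1.11), and Tk1 had the highest level. Rrm2, of ribonucleotide reductase, had 1.25, 1.96, 0.738 and 1.87 RPKM.

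Mitotic genes had 10 of 15 measured members above 1 RPKM, of which 9, 0 and 3 were at least 2-fold higher and 0, 1 and 0 lower (4, 1 and 3 higher and 0 lower against the coding median), with medians of 1.32, -0.51 and 0.68. Cdk1 had the highest ratio (2.49, 0.49 and 1.80), Birc5 the lowest (0.64, -1.51 and 0.08) and Mki67 the highest level. Set beside these lists, the H2B median (1.38, -0.15 and 0.97) was of the same order as the replication and mitosis medians at 1.5 and 24 hr, and the H2A median (-0.88, -1.15 and -1.14) was not. At 6 hr the H2B median lay above those of replication (-0.83) and mitosis (-0.51). The H3 median (0.31, -0.24 and 0.61) was near them at 24 hr but below them at 1.5 hr. The H4 median (-0.10, -0.64 and 0.20) was below both at 1.5 and 24 hr. These lists were not set against genes of like GC content.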

How the data were processed

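The RNA table gives RPKM per RefSeq transcript, made by the authors from TopHat alignments to mm9 of poly-A selected, strand-specific libraries. The deposited values stand on a scale of their own and were divided by 85.6, the median ratio to the RPKM of the study's list of coding genes over 5167 values. Columns were assigned through the study's list of sequencing depths, which names each library with its time. R1 and R2 (Pearson r of 0.991 to 0.995) were averaged and, as their meaning is not given, were not treated as replicates. Steps of whole reads fitted only 64.6 to 73.6% of low values within 0.05, so no count test was run.

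H3K4me3 peaks were called by the authors against input, on reads aligned with Bowtie per the labels. Their file holds tag counts, a score (a multiple of the -log10 of p), fold enrichment over input and a percent FDR, all used as deposited. Positions, exons and sequences came from GENCODE and the mm9 genome, and promoters from RefSeq GRCm38.p6.

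Genes and lists were chosen with earlier results of these data known. Genes were called at 2-fold and an average above 1 RPKM, with no pseudocount. Only some of the members above 1 RPKM were named, among them the highest of each class, some with opposed columns and those nearest the threshold. In each list the highest level and the highest and lowest ratios were named, plus Slbp, Npat, H2afx, H2afz, H3f3b, Pcna and Rrm2. The ratio code was tested on simulated data. Python 3.11.15, pandas 2.3.3 and numpy 2.4.6 were used.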

Additional observations from a re-analysis of the deposited data

How the results depend on the processing

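Each value, with the log2 ratio of every gene above 1 RPKM, was recomputed with 1 choice changed at a time. Values within GC or length bins are centred on the bin with the median of all coding symbols added back. In that form Hist1h2ak at 1.5 hr (-1.04) became 0.10 and the H2A median 0.24. Relative to the GC bin alone, a setting chosen after seeing the data, they were -0.35 and -0.21. No other gene past 2-fold changed sign in the settings run. Each time was 1 library, so no alternative has a test, and the causes of the differences were not tested. No paired analysis was possible because each time was 1 library and the labels give no shared replicate numbers. The RNA table holds no read totals, the sequencing depths listed by the study were not used for counting, and near-identical genes cannot be told apart.

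The 13 genes higher at 1.5 hr became 5, 3 and 6 when libraries were scaled by the median of ratios over all or coding transcripts or by a trimmed mean, 7 at an average above 5 RPKM, 24 within GC bins, 3 with 1 entry per near-identical group and 1 at 3-fold. The 5 higher at 24 hr became 8 when scaled to the sum, 2, 2 and 3 under the other scalings, 13 in R1, 2 in R2, 1 and 3 with a pseudocount of 1 and 0.1, 2 above 5 RPKM, 28 within GC bins, 2 by group, 0 at 3-fold and 22 at 1.5-fold. The 1 lower at 1.5 hr became 15 by the sum, 16 under each other scaling, 0 in R1, 15 in R2, 2 without a filter, 3 within GC bins, 0 within length bins, by group and at 3-fold, and 16 at 1.5-fold. The 16 lower at 6 hr became 0 under all 4 scalings and at 3-fold, 10 in R2, 6 within length bins, 5 by group and 27 at 1.5-fold. The 15 lower at 24 hr became 1 in R1, 3 within GC bins, 3 by group and 0 at 3-fold. Leaving out 1 time in turn left 5 to 14 genes higher and 15 to 17 lower at any time, with 5 higher without the 1.5 hr library.

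The median over the genes at 1.5 hr (0.11) became -0.14 by the sum, -0.30, -0.32 and -0.28 under the other scalings, 0.30 in R2, -0.88 above 5 RPKM, 0.85 within GC bins and 0.26 by group. At 6 hr (-0.52) it became 0.31, 0.28, 0.28 and 0.22 under the scalings, -0.38 with a pseudocount of 1, -1.14 above 5 RPKM and -0.32 within length bins. At 24 hr (0.31) it became 0.25 by the coding median of ratios, 0.43 in R1, 0.51 in R2, 0.26 with a pseudocount of 1, -1.13 above 5 RPKM, 1.01 within GC bins, 0.25 within length bins and 0.50 by group. The H2B minus H2A median at 24 hr (2.11) became 1.89 with a pseudocount of 1 and 1.78 within GC bins. Its lowest values over all settings were 1.82, 0.61 and 1.78 at 1.5, 6 and 24 hr. The 4 scalings cannot change this difference, because each moves every gene of a library alike, so they do not test it. The 2 GC forms give the same difference by construction. Relative to the GC bin alone, 26 genes were higher and 4 lower at 24 hr, 5 lower at 1.5 hr and 0 lower at 6 hr, the medians were 0.40, 0.28 and 0.90, and H2B minus H2A at 24 hr was 1.78. The 50 genes with a peak became 27 at an enrichment above 40.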
